A study of Mus musculus with 60 samples.

Results

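The genes described here encode splicing factors and heterogeneous nuclear ribonucleoproteins (hnRNPs). They were taken as every gene whose symbol on the Affymetrix MOE430 annotation begins with Srsf, Sf3a, Sf3b, Snrp, Snrnp, Hnrnp, U2af, Prpf or Rbm followed by a digit, where the probe set carries that 1 symbol only. The rule gave 105 of the 18193 measured genes, with 285 of the 45037 probe sets (202 on chip A and 83 on chip B). They comprise 10 SR proteins, 3 U2AF subunits, 9 subunits of SF3A and SF3B, 16 proteins of the small nuclear ribonucleoproteins (snRNPs), 12 pre-mRNA processing factors (PRPF), 19 hnRNPs and 36 RNA-binding motif (RBM) genes. The last group is held together by its name: it includes regulators of splicing, proteins with other roles in RNA, and Rbm3os and Rbm46os, which are antisense RNAs. A further 28 probe sets name a gene of this kind together with another gene and were left out, so that Hnrnpa3, Rbm3, Rbm4, Rbm10, Snrpa, Snrpd1 and Snrpd2 have no value here.

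The study compared C57BL/6J wild-type (WT) mice with MSTN-null mice of the same strain, which lack myostatin, a secreted inhibitor of muscle growth. The tissue was the whole embryo (13.5 d.p.c.), the hindquarters (17.5 d.p.c.) or the pectoralis muscle (d35). The labels name no treatment of any group. RNA of 3 animals was pooled, and 5 pools per genotype were measured at each time point (15 animals per genotype and time point), each on both chips, which gives 60 arrays. The null allele is carried by every cell, and embryos and hindquarters hold many tissues besides muscle. In such bulk RNA, fewer cells of a type and less RNA per cell cannot be told apart.

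Splicing removes introns from pre-mRNA in the spliceosome. SR proteins bind exonic enhancers and promote exon inclusion, whereas hnRNPs coat nascent RNA and often oppose it. U2AF reads the end of the intron, SF3A and SF3B hold the U2 snRNP on the branch point, Sm proteins form the ring at the core of most snRNPs, and PRPF proteins help to assemble and remodel the particle. Muscle is one of the tissues with the most tissue-specific alternative exons, and several RBM proteins, among them Rbm20, Rbm24 and Rbm38, regulate such exons or muscle mRNAs.

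Values are log2 intensities after robust multi-array analysis (RMA), and a difference is always WT minus MSTN-null on that log2 scale, so a positive value means a higher level in WT. Time points were normalized apart, and differences were taken within a time point. Array medians lay between 8.05 and 8.09, 7.78 and 7.86, and 6.88 and 6.94 on chip A in embryos, hindquarters and muscle, and the number of pools, not a count of molecules, sets the precision. Called means a Storey q under 0.05 from limma over all 45037 probe sets. No probe set carries the symbol of the targeted gene, so the labels could not be checked by it. Of 11 skeletal muscle markers, all were measured, with a mean level of 12.2 to 12.4 at d35. At 17.5 d.p.c. the mean level of 7 liver markers ran from 11.6 to 13.5 in WT and from 8.67 to 12.8 in MSTN-null, with the lowest value in MSTN-null replicate 5. At the same age the chip B array of WT replicate 1 had the lowest correlation with the others (median r = 0.952).

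Promoter windows of 3 of the genes are shown because of where they stand in the results: Hnrnpu and Rbm25 are the genes with a call in embryos and again at d35, and Sf3b1 is the member closest to Mstn. Each runs from 250 bases before to 50 bases after a RefSeq start site (GRCm38.p6), written in the direction of the gene. Capitals mark matches to the motifs searched on both strands, the first of which was the GC box, GGGCGG. The ETS core was searched for as the letters CCGGAAG. The box read by the TATA-binding protein was taken as TATAAA. The YY1 core was searched for as GCCATNTT, where N is any base. Matches of 1 motif may overlap each other.
Hnrnpu, chr1:178337766-178338065, minus strand: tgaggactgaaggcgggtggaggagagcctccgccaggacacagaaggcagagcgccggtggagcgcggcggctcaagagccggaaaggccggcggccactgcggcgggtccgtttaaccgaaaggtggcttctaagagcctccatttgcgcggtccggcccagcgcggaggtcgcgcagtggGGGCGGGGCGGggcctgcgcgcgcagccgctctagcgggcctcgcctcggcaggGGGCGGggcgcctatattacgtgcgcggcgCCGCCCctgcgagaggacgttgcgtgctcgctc
Rbm25, chr12:83635460-83635759, plus strand: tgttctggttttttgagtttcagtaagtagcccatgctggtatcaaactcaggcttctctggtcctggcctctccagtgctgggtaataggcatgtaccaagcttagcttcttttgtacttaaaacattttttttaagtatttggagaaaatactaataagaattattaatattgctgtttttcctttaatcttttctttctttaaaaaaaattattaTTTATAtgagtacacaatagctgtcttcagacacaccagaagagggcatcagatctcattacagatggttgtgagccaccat
Sf3b1, chr1:55027429-55027728, minus strand: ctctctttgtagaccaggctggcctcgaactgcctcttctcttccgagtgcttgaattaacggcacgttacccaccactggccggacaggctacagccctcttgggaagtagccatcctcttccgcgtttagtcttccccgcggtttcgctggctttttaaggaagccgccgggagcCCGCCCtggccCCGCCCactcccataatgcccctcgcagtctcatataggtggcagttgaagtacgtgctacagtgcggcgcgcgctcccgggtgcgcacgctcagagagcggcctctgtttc
The window of Hnrnpu is 72.7% G and C, with 41 CpG and 4 matches to GGGCGG. That of Rbm25 is 35.0% G and C, holds 0 CpG and has 1 match to TATAAA and 0 to GGGCGG. That of Sf3b1 is 61.0% G and C, with 24 CpG and 2 matches to GGGCGG. The genes called at both ages therefore have unlike windows.

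A window was listed for 90 of the 105 genes, with 114 windows in all. GGGCGG occurred in 58.8% of them, against 35.7% of all 32851 windows, CCGGAAG in 28.1% against 8.86%, GCCATNTT in 14% against 6.05%, and TATAAA in 8.77% against 13.6%. The windows of these genes held a median of 59.8% G and C, against 52.7% for all windows. Genes with several listed start sites, such as Hnrnpf, count more than once. Among the 18 windows of the 12 genes with a called probe set, 8 held GGGCGG and 6 held CCGGAAG. These are descriptions of letters, and no binding was measured.

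In the embryos (13.5 d.p.c.), 3 of the 285 probe sets (1.05%) were called, all higher in WT. Among all 45037 probe sets, 0.54% were called, and 0.513% were called and higher in WT. The 3 belong to Hnrnpu, which binds nuclear RNA and the chromatin scaffold, Rbm25, a regulator of alternative splice sites, and Snrnp70, the U1 snRNP protein that takes part in recognition of the start of the intron. None of the SR, U2AF, SF3 or PRPF probe sets was called (limma). The differences were 1.25-fold to 1.36-fold.

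Hnrnpu stood at 12.70, 12.61, 12.78, 12.51 and 12.38 in WT replicates 1 to 5 and at 12.16, 12.19, 12.17, 11.98 and 12.26 in the MSTN-null replicates (probe set 1450849_at). All WT pools lay above all MSTN-null pools, and the difference was 0.44 with a standard error of 0.07 (limma, q = 0.016). The other 4 probe sets of Hnrnpu gave -0.08 to 0.07, and the brightest of them, 1423051_at, gave 0.07 (q = 0.434). The call therefore rests on 1 of 5 probe sets.

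Rbm25 was called at its brightest probe set, 1425523_at. WT pools were at 10.52, 10.36, 10.50, 10.34 and 10.24, MSTN-null pools at 10.07, 10.19, 9.98, 10.03 and 10.04. The genotypes did not overlap, with a difference of 0.33 and a standard error of 0.06 (limma, q = 0.0206). The other 5 probe sets of Rbm25 gave -0.005 to 0.18, so that 4 of those 5 were also positive, without a call.

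Snrnp70 was at 10.01, 10.10, 9.87, 9.91 and 9.78 in WT and at 9.48, 9.67, 9.48, 9.19 and 9.63 in MSTN-null (1429009_at). The lowest WT pool lay above the highest MSTN-null pool, and the difference was 0.44 with a standard error of 0.08 (limma, q = 0.0222). Its brightest probe set, 1451104_a_at, differed by 0.06, and the remaining pair by 0.02 and 0.08.

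**Figure D1:**
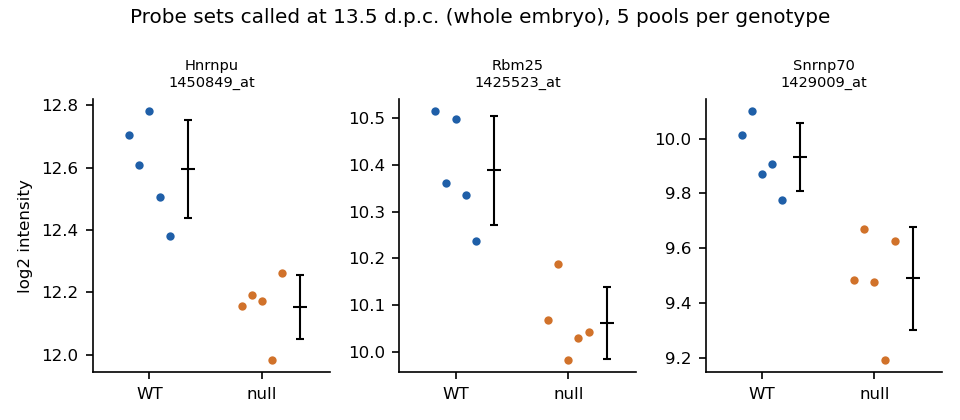
Log2 intensity (y axis) in the 5 WT and 5 MSTN-null embryo pools (13.5 d.p.c.) for the 3 called probe sets, with the mean and SD beside the points. In each panel the WT pools lie above the MSTN-null pools, with differences of 0.33 to 0.44, and each panel has its own y axis.

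None of the other members named here at this age was called, and Prpf4 and Snrpb2 came near to the threshold. Prpf4, a protein of the U4/U6 snRNP, differed by 0.22 at its brightest probe set (standard error 0.05; limma, q = 0.0631), with WT pools from 9.54 to 9.81 and MSTN-null pools from 9.39 to 9.53. Snrpb2, a U2 snRNP protein, differed by 0.19 (q = 0.0718), and its 3 probe sets ran from -0.10 to 0.19. Sf3a2, a subunit of SF3A, was at 11.45 to 11.53 in WT and 11.28 to 11.40 in MSTN-null, a difference of 0.13 (q = 0.15), while Sf3b5 of SF3B had the opposite sign with no overlap (-0.14, q = 0.152). In the other families the brightest probe sets with the smallest p were those of Srsf9 (0.11, q = 0.228), U2af1 (0.08, q = 0.323) and Hnrnph1 (0.12, q = 0.248). In all, 11 of the 285 probe sets (3.86%) did not overlap between the genotypes, 9 higher and 2 lower in WT, against 2.4% of all probe sets.

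Taking 1 value per gene, from its brightest probe set over all 30 pools, 64 of the 105 genes had positive values, with a median difference of 0.02. Over all genes, 42.6% were positive and the median was -0.01. Of the hnRNPs 16 of 19 were positive (median 0.05), of the SF3 subunits 8 of 9 (median 0.04) and of the SR proteins 8 of 10 (median 0.01). The snRNP proteins (7 of 16), PRPF (6 of 12) and RBM genes (17 of 36) were spread on both sides of 0. The SR median turned to -0.003, with 5 of 10 positive, without MSTN-null replicate 1, and was 0.002, with 6 of 10, after a further quantile normalization. The SF3 median was 0.027 without MSTN-null replicate 1, 0.025 without WT replicate 1, 0.017 without WT replicate 2 and 0.021 after the further normalization, and the hnRNP median was 0.034 without WT replicate 4. The mean deviation of the 105 genes from the 10-pool mean was -0.01 to 0.04 in WT pools and -0.04 to 0.02 in MSTN-null pools, so that the genotypes overlapped. The SD of this mean deviation between pools was 0.023 in WT and 0.026 in MSTN-null. It was 0.061 and 0.043 for the hnRNPs, 0.033 and 0.029 for the SF3 subunits and 0.034 and 0.047 for the SR proteins. The typical SD of a single member probe set within a genotype was 0.08, and members share the same pools.

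Without WT replicate 1, or without MSTN-null replicate 3, no member was called, and none was called in a single fit of all 30 pools. Over all probe sets the 243 calls became 1 without WT replicate 1, 31 without MSTN-null replicate 3 and 0 in the single fit. For the actin control, the 3′ value less the 5′ value, a sign of RNA integrity, ran from 0.07 to 0.21 in WT and from 0.20 to 0.35 in MSTN-null on chip A, and from 0.16 to 0.23 and from 0.29 to 0.32 on chip B. That of Gapdh overlapped on both chips. The mean level of 7 proliferation markers was 11.11 to 11.17 in WT and 11.19 to 11.22 in MSTN-null, without overlap, and none of these markers was called (limma). That of the liver, neuron, erythroid and skeletal muscle markers overlapped. The part of RNA integrity and of the proliferation markers in these calls was not tested.

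**Figure D2:**
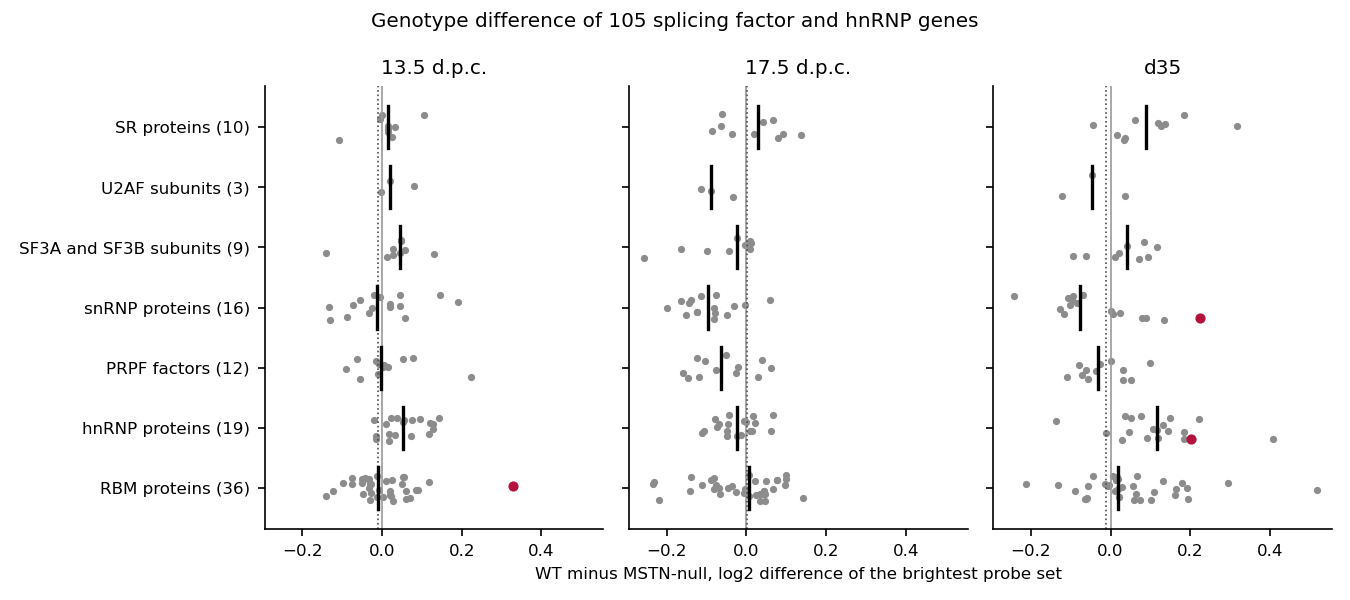
Difference of WT minus MSTN-null (x axis, log2) of the brightest probe set of each of the 105 genes, by family (number of genes in brackets) and time point. Red points are genes whose brightest probe set was called. Grey points are the rest, which include genes called at another probe set only. Black bars are family medians, the dotted line is the median of all genes, and points are shifted vertically at random. At d35 the hnRNP median is 0.12 and the snRNP median -0.08, while at 17.5 d.p.c. 1 of 16 snRNP genes is above 0.

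In hindquarters at 17.5 d.p.c. no member was called, as was no probe set of the arrays (0% of 45037; limma with Storey q). At an unadjusted p under 0.05 there were 6 of 285 member probe sets (2.11%), 3 in each direction, and 2.62% of the probe sets that name 1 gene. Only Prpf19, a ubiquitin ligase that stays with the active spliceosome, did not overlap between the genotypes, at 1 of its 5 probe sets, against 0.535% of all probe sets. It was at 6.57, 6.70, 6.62, 6.69 and 6.57 in WT and at 6.84, 6.80, 6.85, 6.77 and 6.76 in MSTN-null (1444939_at). The difference was -0.18 with a standard error of 0.05 (limma, unadjusted p = 0.00414, q = 1).

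Of the RBM proteins that act in muscle, Rbm20 and Rbm24 had negative values and Rbm38 a positive one, all without a call. Rbm24 has 5 probe sets, all negative, from -0.44 to -0.005. At 1458624_at WT pools were at 7.30, 7.66, 7.82, 7.57 and 7.22 and MSTN-null pools at 7.62, 7.66, 7.97, 7.85 and 8.09, a difference of -0.32 with a standard error of 0.13, and the genotypes overlapped. Rbm20, the regulator of titin exons, was at 7.32, 7.69, 7.90, 7.68 and 7.71 in WT and at 7.75, 7.77, 7.95, 7.85 and 8.15 in MSTN-null, a difference of -0.23 with a 95% interval of -0.473 to 0.005. Rbm38 gave 0.10. At an unadjusted p under 0.05 (limma) there were 4 of the 95 RBM probe sets (4.21%), 3 higher and 1 lower in WT. Sf3b5, which had the smallest p of the SF3 subunits, gave -0.26. These intervals do not show that the genotypes were alike, since the median SD within a genotype was 0.17 at this age, above the 0.08 of 13.5 d.p.c.

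Of the brightest probe sets 38 of 105 were positive, with a median of -0.03, against 51.3% and a median of 0.003 over all genes. The snRNP proteins stood on 1 side: 15 of 16 had negative values, with a median of -0.10 and a range of -0.20 for Snrpf to 0.06 for Snrnp48. The mean deviation of these 16 genes was -0.06, -0.07, -0.04, 0.01 and -0.06 in WT replicates 1 to 5 and 0.19, 0.15, 0.01, -0.07 and -0.05 in the MSTN-null replicates. MSTN-null replicates 1 and 2 stood above all other pools, replicate 3 lay next to the highest WT pool, replicates 4 and 5 lay among the WT pools, and no snRNP probe set had an unadjusted p under 0.05. Without MSTN-null replicate 1 the median was -0.062 with 3 of 16 positive, and without MSTN-null replicate 2 it was -0.070 with 2 of 16 positive. With WT replicate 1 and MSTN-null replicate 5 both left out, it was -0.112 with 1 of 16 positive. PRPF genes were positive in 3 of 12, U2AF in 0 of 3, hnRNPs in 6 of 19 and SR proteins in 6 of 10, and the hnRNP count ran from 2 (without MSTN-null replicate 4) to 10 (without WT replicate 2, where the median was 0.01) as single pools were left out.

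**Figure D3:**
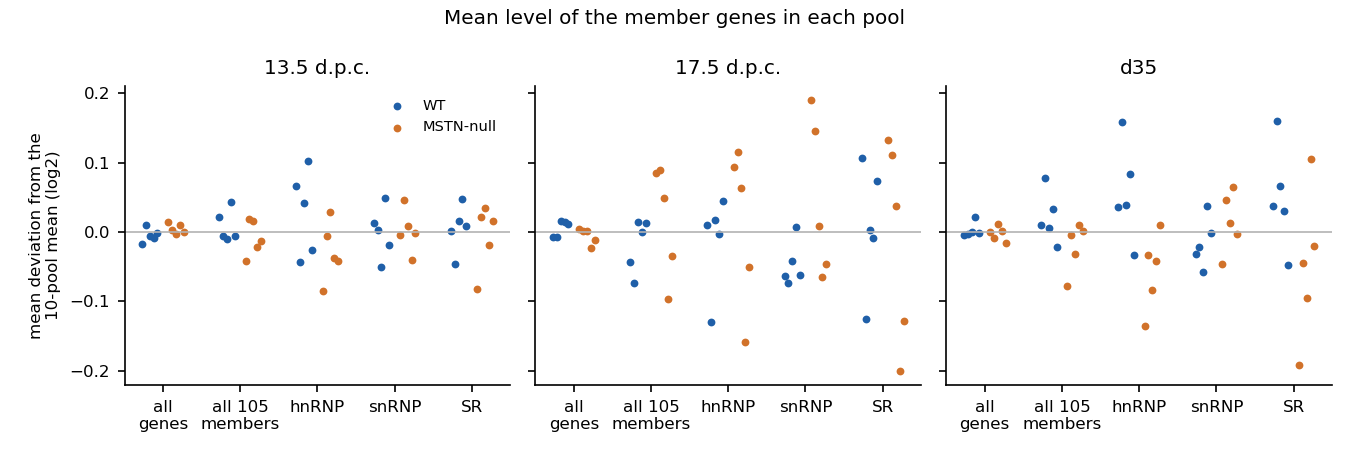
Mean deviation of gene groups from the mean of the 10 pools of a time point (y axis, log2; brightest probe set of each gene), 1 point per pool, for all genes, the 105 members, and the hnRNP, snRNP and SR families. WT and MSTN-null pools overlap in every group shown. At d35 the hnRNP points run from -0.03 to 0.16 in WT and from -0.14 to 0.01 in MSTN-null. The RBM genes, not drawn here, did not overlap at d35.

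In the pectoralis muscle at d35, 14 of 285 probe sets (4.91%) were called, which is near the 4.58% of all probe sets. Of the 14, 12 were higher in WT (2.5% of all probe sets were called and higher) and 2 were lower (2.08% of all). They belong to 11 genes: Hnrnpa2b1, Hnrnpdl, Hnrnpf, Hnrnpu, Prpf4b, Rbm25, Rbm26, Rbm39, Sf3b1 and Snrpg were higher in WT, and Prpf19 was lower. The folds of the higher ones ran from 1.15 to 1.5. Only 2 of the 14, those of Hnrnpdl and Snrpg, are the brightest probe sets of their genes. Below the median of their chip lie 6 of the 14: both of Prpf4b, both of Rbm39, and those of Hnrnpu and Rbm26. The genotypes did not overlap at 12 of the 285 probe sets (4.21%), 10 higher and 2 lower in WT, against 5.25% of all.

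Among the hnRNPs, Hnrnpa2b1, which binds and sorts many mRNAs, had the smallest q. At 1433829_a_at WT pools were at 8.57, 8.85, 8.65, 8.64 and 8.63 and MSTN-null pools at 8.18, 8.28, 8.18, 8.32 and 8.48. The groups did not overlap, and the difference was 0.38 with a standard error of 0.07 (limma, q = 0.00677), 1.30-fold. A second probe set of the gene gave 0.34 without a call (q = 0.0818), whereas the brightest, 1420365_a_at, gave -0.01 with a 95% interval of -0.13 to 0.11. The call of 1433829_a_at was kept in each of the 10 fits with 1 pool left out and without WT replicates 2 and 3.

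Hnrnpdl, a paralog of the AU-rich element binding protein Hnrnpd, was at 10.43, 10.62, 10.65, 10.61 and 10.54 in WT and at 10.36, 10.42, 10.44, 10.27 and 10.35 in MSTN-null (1424251_a_at). The lowest WT pool overlapped with the highest MSTN-null pool, and the difference was 0.20 with a standard error of 0.05 (limma, q = 0.0412). Its other 6 probe sets gave -0.09 to 0.20. The call was kept in 1 of the 10 fits that left out a pool, so it depends on most of them.

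Hnrnpf, which binds G-rich tracts, was at 8.52, 9.08, 8.75, 8.66 and 8.50 in WT and at 8.31, 8.46, 8.15, 8.19 and 8.46 in MSTN-null (1437099_x_at), a difference of 0.39 (standard error 0.10; q = 0.0397). Its brightest probe set, 1456664_x_at, gave 0.41 with a q of 0.0575, and its other probe sets 0.03 and 0.12. Both large values come from probe sets whose suffix _x_at marks possible cross-hybridization. The called probe sets 1419839_x_at of Prpf19 and 1442745_x_at of Rbm39 carry the same suffix, and those of Sf3b1 and Snrpg end in _s_at. Hnrnpu was called at 1434390_at, another probe set than at 13.5 d.p.c.

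Hnrnpu at this probe set was at 6.48, 6.38, 6.42, 6.41 and 6.05 in WT and at 5.96, 5.89, 5.92, 6.0 and 6.22 in MSTN-null. WT replicate 5 and MSTN-null replicate 5 crossed over, and the difference was 0.35 with a standard error of 0.08 (limma, q = 0.0257). The probe set called at 13.5 d.p.c., 1450849_at, gave 0.07 at d35, and 1434390_at gave -0.08 at 13.5 d.p.c. No probe set of Hnrnpu was called at both ages.

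Of the hnRNPs that were not called, Hnrnpl (0.22), Hnrnpd (0.185), Hnrnpm (0.185), Hnrnph2 (0.15) and Hnrnpul2 (0.15) had brightest values above 0 with an unadjusted p of 0.0153 to 0.0362. Hnrnpa1, the abundant founder of its subfamily, gave 0.05, Hnrnpk 0.13 and Hnrnpab -0.14. All 7 probe sets of Hnrnpab were negative, from -0.21 to -0.004. In all, 17 of 19 hnRNPs were positive, with a median of 0.12, and 16 of 19 were positive without WT replicates 2 and 3 (median 0.09). Without MSTN-null replicate 1 the median was 0.063, with 17 of 19 positive. At an unadjusted p under 0.05 there were 21 of their 58 probe sets (36.2%), 18 of them higher in WT, against 19.2% of the probe sets of all genes. The share was 22.5% for all 285 member probe sets. PRPF had 25%, snRNP proteins 23.5%, RBM genes 18.9%, SF3 subunits 16.7%, SR proteins 12.1% and U2AF 0%. Per pool, the mean deviation of the hnRNPs was 0.04, 0.16, 0.04, 0.08 and -0.03 in WT and -0.14, -0.03, -0.08, -0.04 and 0.01 in MSTN-null. Replicate 5 of each genotype lay within the range of the other genotype, and WT replicate 2 was the highest.

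**Figure D4:**
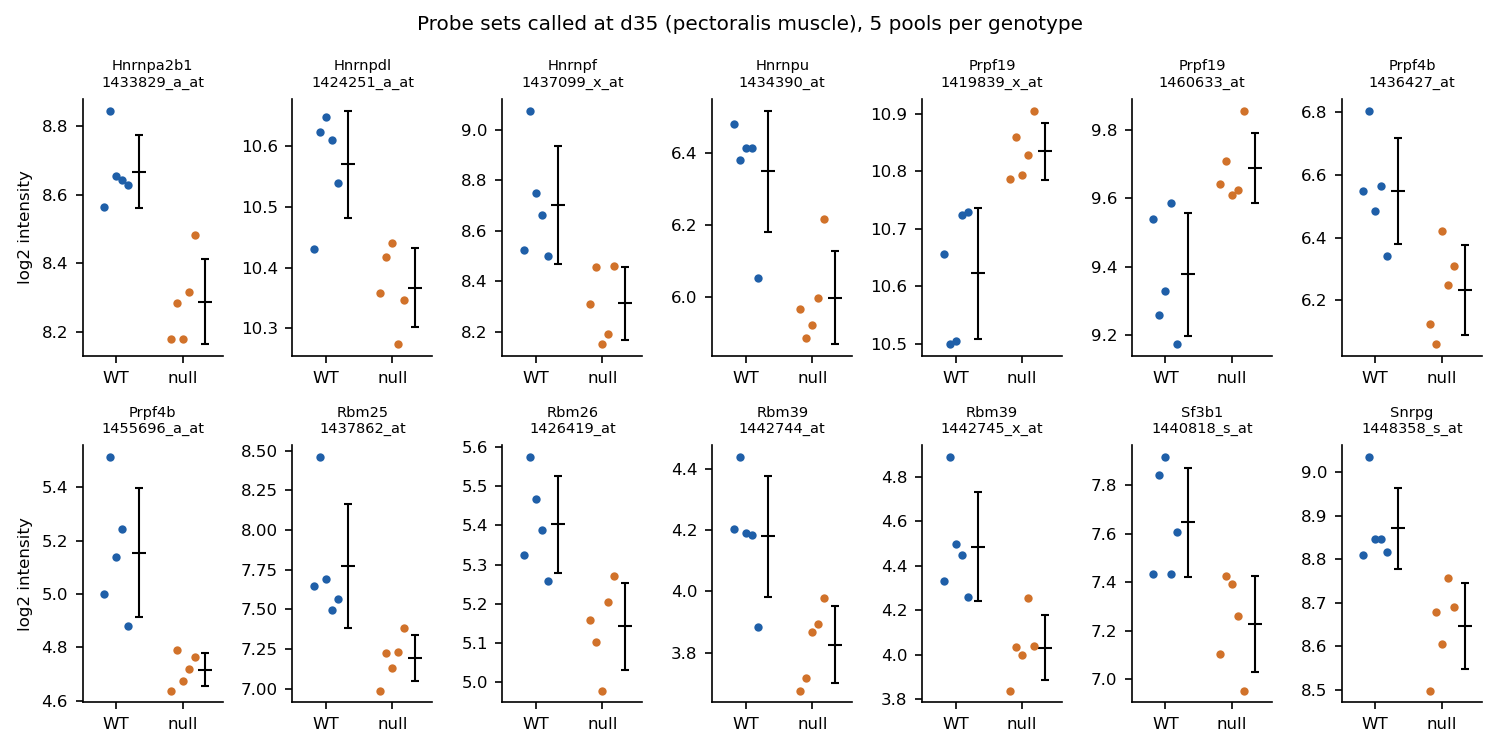
Log2 intensity (y axis, own scale in each panel) in the 5 WT and 5 MSTN-null pools of pectoralis muscle at d35 for the 14 called probe sets, with mean and SD. Prpf19 is lower in WT at both of its probe sets (-0.21 and -0.31), the other 12 are higher, and WT replicate 2, the second WT point, is the highest WT pool in 9 of those 12.

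Among the core factors, Sf3b1, the branch point protein of SF3B that is mutated in some blood cancers, was at 7.43, 7.85, 7.92, 7.43 and 7.61 in WT and at 7.11, 7.43, 7.40, 7.26 and 6.95 in MSTN-null (1440818_s_at). The difference was 0.42 with a standard error of 0.11 (limma, q = 0.0406), and the lowest WT pool was just above the highest MSTN-null pool. The other 3 probe sets gave 0.28, 0.22 and 0.09, the last being the brightest, and none was called. Sf3b1 lies on chromosome 1, 14 measured genes from Mstn, and is the only member close to it: the next, Rbm44, is 266 measured genes away and Hnrnpu 749. A difference from the knocked-out locus itself or from DNA linked to it cannot be told apart here. Other SF3 subunits were between -0.09 (Sf3a2) and 0.12 (Sf3b3) at their brightest probe sets.

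Snrpg, an Sm protein, was at 8.81, 9.04, 8.85, 8.85 and 8.82 in WT and at 8.50, 8.68, 8.61, 8.76 and 8.69 in MSTN-null (1448358_s_at), a difference of 0.23 with a standard error of 0.06 (limma, q = 0.0433). Its other probe set, 1448357_at, gave -0.04, and the call was kept in 1 of the 10 fits with a pool left out. Snrpd3, another Sm protein, went the other way: its 3 probe sets gave -0.24, -0.18 and -0.26, all just short of a call (q = 0.0514 to 0.0847). At 1422884_at it was at 9.73, 9.54, 9.54, 9.73 and 9.63 in WT and at 9.71, 9.99, 9.84, 9.81 and 10.04 in MSTN-null. Snrpc gave -0.13 and Snrpf -0.12, and 7 of the 16 snRNP genes were positive, with a median of -0.08. The median was -0.017 without WT replicates 2 and 3, -0.035 without MSTN-null replicate 4, -0.049 without MSTN-null replicate 2 and -0.047 without WT replicate 2.

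Prpf19 was the only member called lower in WT. At 1460633_at WT pools were at 9.54, 9.26, 9.33, 9.59 and 9.17 and MSTN-null pools at 9.64, 9.71, 9.61, 9.62 and 9.86, with no overlap. The difference was -0.31 with a standard error of 0.08 (limma, q = 0.0377), and at 1419839_x_at it was -0.21 with a standard error of 0.06 (q = 0.0439). Its remaining 3 probe sets gave -0.12, -0.06 and -0.03, so all 5 had the same sign. Each of the 2 calls was kept in 2 of the 10 fits with a pool left out and was lost with the Benjamini-Hochberg adjustment and with the replicate block.

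Prpf4b, a kinase of the spliceosome, had 2 of its 6 probe sets called, both below the median of their chip. At 1455696_a_at WT pools were at 5.0, 5.51, 5.14, 5.24 and 4.88 and MSTN-null pools at 4.64, 4.79, 4.67, 4.72 and 4.76, a difference of 0.44 (standard error 0.10; q = 0.0169) with no overlap. At 1436427_at it was 0.32 (q = 0.0441). The other 4 probe sets, the brightest included, gave -0.01 to 0.08. Prpf8, at the catalytic centre, gave -0.03 and Prpf38a -0.11 at their brightest probe sets.

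SR proteins had no call at d35. Srsf1, the founding SR protein, had the largest value, with WT pools at 7.66, 8.07, 7.82, 7.63 and 7.34 and MSTN-null pools at 7.18, 7.41, 7.12, 7.65 and 7.56, a difference of 0.32 with a 95% interval of 0.04 to 0.60 (q = 0.135). The 7 probe sets of Srsf1 ran from -0.15 to 0.32, with 5 positive. Srsf3 gave 0.04 and Srsf10 0.02. Of the 10 genes 9 were positive, with a median of 0.09, which was 0.05 without WT replicates 2 and 3 and 0.045, with 7 of 10 positive, without MSTN-null replicate 1. U2af1 gave -0.05 and U2af2 0.04.

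Among the RBM genes, Rbm39, a coactivator and U2AF-like splicing factor, has 12 probe sets, more than any other member, and all 12 were positive at d35, from 0.001 to 0.52. Both called probe sets lie below the median of their chip. At 1442745_x_at it was at 4.33, 4.89, 4.50, 4.45 and 4.26 in WT and at 3.84, 4.03, 4.0, 4.25 and 4.04 in MSTN-null, a difference of 0.45 (standard error 0.11; q = 0.0243). At 1442744_at it was 0.35 (q = 0.0342). The brightest, 1438420_at, had the largest difference, 0.52, and missed the threshold (q = 0.0553), with WT pools at 7.66, 8.60, 8.03, 7.76 and 7.94 and MSTN-null pools at 7.47, 7.81, 7.40, 7.48 and 7.24.

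Rbm25 was called at 1437862_at, with WT pools at 7.65, 8.46, 7.69, 7.50 and 7.57 and MSTN-null pools at 6.99, 7.23, 7.13, 7.23 and 7.39. The difference, 0.58 with a standard error of 0.15 (limma, q = 0.0364), was the largest of the called members, and it was 0.38 and still called without WT replicates 2 and 3. The probe set called at 13.5 d.p.c., 1425523_at, gave 0.10 at d35, and all 6 probe sets were positive. Rbm26 was called at 1426419_at (0.26, standard error 0.07; q = 0.0406), while its other 3 probe sets gave -0.02 to 0.06, and the call was kept in 2 of the 10 fits with a pool left out. Rbm7, a part of the complex that hands RNA to the nuclear exosome, gave 0.29 (q = 0.051). The muscle regulators Rbm20, Rbm24 and Rbm38 gave 0.11, -0.09 and -0.13 at their brightest probe sets and were not called. Of the 36 RBM genes 25 were positive, with a median of 0.02, and 21 to 26 as single pools were left out. Their mean deviation per pool ran from -0.003 to 0.07 in WT and from -0.05 to -0.01 in MSTN-null, without overlap. The SD of this mean between pools was 0.03 in WT and 0.017 in MSTN-null. The median SD of single RBM probe sets within a genotype was 0.09.

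**Figure D5:**
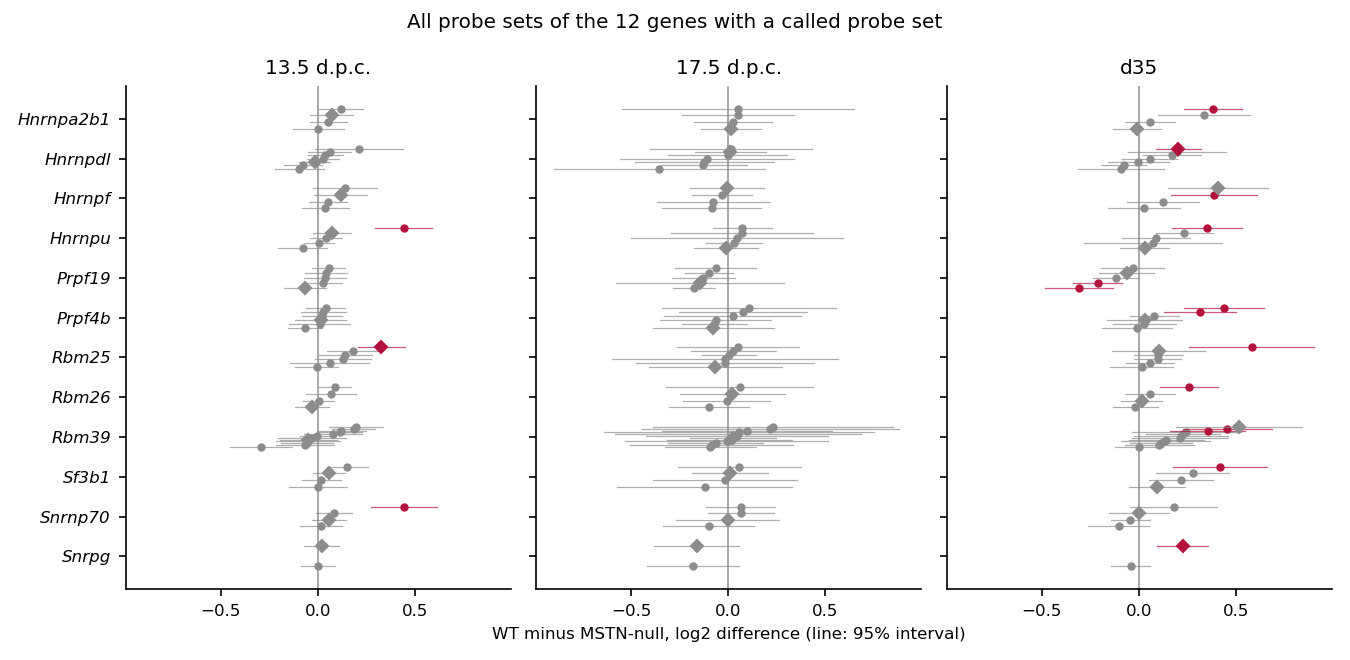
Difference of WT minus MSTN-null (x axis, log2) with its 95% interval for every probe set of the 12 genes with a called probe set, at the 3 time points. Red marks called probe sets and diamonds the brightest of each gene. At d35 the probe sets of Hnrnpu run from 0.03 to 0.35 and those of Rbm39 from 0.001 to 0.52.

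Over the 105 genes at d35, 71 were positive with a median of 0.03, against 45.8% and a median of -0.01 over all genes. In 73 genes with several probe sets, all probe sets of the gene had the same sign in 29 (39.7%) at d35, 31 at 13.5 d.p.c. and 28 at 17.5 d.p.c. The median range among the probe sets of a gene was 0.16 at d35, which is of the size of many called differences. Probe sets of 1 gene can read different transcripts, and the arrays do not tell which.

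WT replicate 2 was the highest WT pool in 9 of the 12 called members that were higher in WT (75%), and in 31.6% of the 1126 such probe sets of the arrays. In the same pool the mean level of 7 T and B cell markers was 8.20 and that of 7 macrophage markers 9.0. T and B cell markers were at 7.41 in WT replicate 3 and at 6.58 to 7.19 in the other 8 pools, and macrophage markers at 7.81 to 8.43 outside WT replicate 2. Its actin value of the same kind was the highest, 0.58 on each chip. WT replicate 3 was next, at 0.31 on chip A and 0.445 on chip B. The other WT pools were at 0.13 to 0.23 on chip A and 0.21 to 0.24 on chip B. The MSTN-null pools were at 0.06 to 0.21 on chip A and 0.16 to 0.28 on chip B. The mean level of 6 white adipocyte markers was 10.0 to 10.2 in WT and 9.20 to 10.0 in MSTN-null. Of these 6 markers, 3 were called higher in WT and 0 lower (limma). The part of these cell markers and of RNA integrity in the member calls was not tested. Without WT replicates 2 and 3, which also lowers the number of pools, the calls of Hnrnpa2b1 and Rbm25 were left of the 14, and the calls over all probe sets fell from 2062 to 638. In that fit no called member changed sign: Hnrnpu at 1434390_at gave 0.32, Prpf19 at 1460633_at -0.25, Snrpg 0.18 and Sf3b1 0.26. Without WT replicate 3 alone the call of Hnrnpa2b1 was left.

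Whether the genotype difference itself changed between ages was tested as an interaction. Between 13.5 d.p.c. and d35, 1 of 285 probe sets was called, against 1.17% of all: Prpf19 at 1419839_x_at, with 0.06 at 13.5 d.p.c. and -0.21 at d35, a change of -0.27 with a standard error of 0.07 (limma, q = 0.0475). Snrpd3 (-0.39, q = 0.0809) and Rbm39 (0.57, q = 0.111) at their brightest probe sets were not called. Between 17.5 d.p.c. and d35 no member was called, against 0.715% of all, and the smallest p was that of Snrpg (0.39, q = 0.0637). Between the embryonic ages the count was 0 for members and 0% for all probe sets. The call of Prpf19 is lost with the Benjamini-Hochberg adjustment.

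Other genes of splicing, from a list of 95 that the rule did not take, were measured for 88, with 281 probe sets. At 13.5 d.p.c. 7 of them (2.49%) were called, all higher in WT, against 0.513% of all probe sets called and higher: Nono of the paraspeckles (0.24), the SR protein kinase Srpk2 (0.43), Pnn (0.32), Luc7l3 (0.34), the SR-related Tra2a (0.28), and the exon regulators Mbnl3 (0.31) and Rbfox2 (0.35). Of these, the probe set of Rbfox2 alone is the brightest of its gene. The brightest probe sets of the other genes were not called: Luc7l3 (-0.03), Tra2a (-0.06) and Mbnl3 (-0.09) had the opposite sign there, and Pnn gave 0.04, Nono 0.07 and Srpk2 0.18. At d35 14 (4.98%) were called, 12 higher and 2 lower, which is near the 4.58% of all probe sets. Qk, the quaking RNA-binding protein, was higher at 4 probe sets (0.43 to 0.82), Khdrbs3 by 0.92, which is 1.89-fold, Luc7l2 at 3 probe sets (0.26 to 0.44), and Luc7l, Tra2a, Ddx5 and Taf15 at 1 each (0.26 to 0.36). Rbfox1, which regulates muscle exons, was lower (-0.30; q = 0.029), as was Pcbp2 (-0.26). The calls of Khdrbs3, Taf15 and Rbfox1 are at their brightest probe sets, whereas the brightest of Qk gave 0.03, of Luc7l2 -0.04, of Tra2a 0.03, of Pcbp2 -0.02, of Ddx5 0.10 and of Luc7l 0.15, without a call. At 17.5 d.p.c. none was called, with 7 at an unadjusted p under 0.05 (limma).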

How the data were processed

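RNA pools were hybridized by the authors to chips A and B of the MOE430 set, and the deposited values are log2 intensities that the authors obtained with RMA from affy, whose version is not given in the sources used here. RMA subtracts background, equalizes arrays and summarizes probes, which can compress differences, and levels are comparable between arrays of a chip only. Samples were assigned from their titles, and both arrays of a pool were matched on replicate number. Replicates are pools of separate animals, called biological per the labels, and p-values measure the spread between pools. After removal of 64 controls per chip, and with 100 probe sets present on both chips taken from chip A, 45037 probe sets were fitted at each time point with limma 3.58.1 (lmFit, eBayes, two-sided) in R 4.3.3, with the package data.table (1.17.8). Storey q-values used lambda from 0.05 to 0.95 in steps of 0.05. No filter on low values was applied, so all 285 member probe sets were tested. Intervals are at 95%. The code was tested on simulated data.

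The text names every called member probe set, the other probe sets of those genes, the gene of each family whose brightest probe set had the smallest p, well-known members listed by name, of which Rbm3 has no value, and members close to Mstn. Further genes were chosen after their values were seen. Members, families and lists were chosen with earlier results of these data known. Symbols of all 105 genes matched RefSeq by gene ID. Promoter windows are RefSeq's (GRCm38.p6). Figures were drawn with Python 3.11.15 and matplotlib 3.10.9. Alternatives covered the adjustment, moderation, normalization, dim and shared probe sets, chips, a single fit, a replicate block and left-out pools. Protein sequences and a genome were not used here.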

Additional observations from a re-analysis of the deposited data

Results flagged for a closer look

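Among 40 groups of 5 values examined (both genotypes of each called probe set, and the mean of the members at each time point), 3 had 1 pool apart from the rest, where chance alone gives about 1 in 20. All 3 are WT groups at d35. Snrpg at 1448358_s_at was at 9.04 in WT replicate 2 and at 8.81 to 8.85 in the other pools (gap over range 0.833). Rbm25 at 1437862_at was at 8.46 in WT replicate 2 and at 7.50 to 7.69 in the others (0.799). Hnrnpu at 1434390_at was at 6.05 in WT replicate 5 and at 6.38 to 6.48 in the others (0.765), which lowers the difference.

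The genotype difference of Prpf19 at 1419839_x_at changed by -0.269 from embryos (13.5 d.p.c.) to pectoralis muscle (d35) (limma interaction, q = 0.0475). Age and tissue cannot be told apart in this change. At d35 all WT pools lay below all MSTN-null pools. The suffix _x_at of this probe set marks possible cross-hybridization. The change at the other called probe set of Prpf19, 1460633_at, was -0.35 (q = 0.0865).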

How the results depend on the processing

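At 13.5 d.p.c. the 3 member calls became 5 with trend and robust moderation and 5 without dim probe sets, 1 with 1 probe set per gene and 0 in 1 fit of all 30 pools, and 0 to 8 with a pool left out. At d35 the 14 calls became 4 with Benjamini-Hochberg, 6 with 1 probe set per gene, 9 in 1 fit of all 30 pools, 9 without probe sets ending in _s_at or _x_at, 16 with trend and robust moderation, 17 with a further quantile normalization, 17 with each chip alone, 18 without dim probe sets (8 of them among the 14), 2 without WT replicates 2 and 3, and 1 (without WT replicate 3) to 15 (without WT replicate 5) with a pool left out. With the replicate block the counts were 3, 0 and 9, of which 3, 0 and 6 are among the reported calls. Same-numbered pools did not all deviate together at any time point (correlations of -0.10 to 0.08, -0.20 to 0.48 and -0.17 to 0.14, and 1, 3 and 1 of 5 WT pools were closest to their own number). At 17.5 d.p.c. 3 of 5 pairs exceeded 0.1, and 3 MSTN-null pools were also closest to their own number, a hint that some pools share more than a number at that age, where no call was made with or without the block. At 17.5 d.p.c. the count was 0 in every setting run. Over all probe sets, the 2062 calls at d35 became 1324 with Benjamini-Hochberg, 1345 with 1 probe set per gene and 1854 with the replicate block. They became 2223 in 1 fit of all 30 pools, 2266 with the further quantile normalization and 2694 without dim probe sets. Without WT replicate 3 they were 777, and without WT replicate 5 they were 1856. The 243 at 13.5 d.p.c. became 347 with trend and robust moderation, 338 without dim probe sets and 9 with 1 probe set per gene. The median difference of the member genes kept its sign at every time point in every setting run, and ran from 0.004 to 0.03, from -0.06 to -0.01 and from 0.02 to 0.04 as pools were left out. With a further quantile normalization it was 0.002 at 13.5 d.p.c. The interaction count of 1 was 0 with Benjamini-Hochberg and 0 to 4 with a pool left out, both chosen after seeing the data, as was the fit without WT replicate 1 and MSTN-null replicate 5. No named probe set changed sign where it was called. The cause of these changes was not tested, except that fewer probe sets or pools are fitted where some are left out. Of the 14 calls at d35, 6 lie below the median of their chip.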
